A study of Bos taurus with 20 samples.

Results

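The genes described here encode the glucocorticoid receptor (NR3C1), the mineralocorticoid receptor (NR3C2), the oestrogen receptors (ESR1 and ESR2), the progesterone receptor (PGR) and the enzyme that makes active cortisol (HSD11B1). Their probes were found on a bovine oligonucleotide array by the gene name or by a symbol in the probe description. The probe of ESR1 and 1 probe of NR3C2 carry an older name in the files and were matched by gene number instead. The array carried 7 probes for these 6 genes, of 21475 probes and 15048 named genes in all, each printed as 2 spots. NR3C2 had 2 probes and each other gene had 1.

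RNA came from neck muscle collected at slaughter from 10 cows. The treated animals, 5 cows named DE27 to DE32, were given oral dexamethasone (a synthetic glucocorticoid) at 0.4 mg per animal and day over 31 days, together with estradiol, an oestrogen, injected into muscle at 5 mg per animal and week on 6 occasions. The 5 control animals were K3, K6, K8, K9 and K10. Muscle was kept under vacuum at 4 °C and sampled at day 14 and at day 0, so that there were 4 groups of 5 arrays: treated day 14, control day 14, treated day 0 and control day 0. The labels give no breed or age, and every treated animal received both drugs, so an effect of dexamethasone cannot be told apart from one of estradiol. The design asks what the treatment did to muscle transcripts and what storage did to them.

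Steroid receptors of this family are transcription factors that wait for their hormone, often held by HSP90 and its co-chaperones, and then act on target genes in the nucleus. The glucocorticoid receptor answers to cortisol and to dexamethasone and drives protein breakdown in muscle, while the mineralocorticoid receptor binds aldosterone and cortisol. HSD11B1 regenerates cortisol from inactive cortisone inside cells, HSD11B2 does the reverse, and the oestrogen receptors induce PGR in many oestrogen-responsive tissues.

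Values are log2 normalized signal, that is, log2 of the background-subtracted array signal scaled so that the arrays share their 75th percentile. The unscaled 75th percentile was 325 to 451 in treated and 278 to 534 in control muscle at day 14, against 719 to 949 in treated and 657 to 936 in control muscle at day 0. Arrays of a group correlated across probes with r of 0.945 to 0.986. Of 10 markers of skeletal muscle fibres, 8 were on the array, and all 8 were well above background on all 20 arrays. Tests covered the 15438 probes with signal well above background on 5 arrays or more. Differences are treated minus control, or day 14 minus day 0, with the standard error (SE) of a limma fit and Benjamini-Hochberg adjusted p over all tested probes, and a probe is said to have passed when its adjusted p was under 0.05. Each array is 1 muscle sample, and precision is limited by there being 5 animals in a group.

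Signal separated the genes into 3 kinds. The probes of NR3C1 and ESR1 and 1 probe of NR3C2 (A_73_104916) were well above background on all 20 arrays, on both spots. HSD11B1 was well above background on 17 of 20 arrays, and on both spots on 13 of them. PGR was above background on 3 arrays, the other NR3C2 probe (A_73_103865) on 4 and ESR2 on none, and none of these was so on both spots of any array. Thus 4 of the 7 probes were tested.

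**Figure D1:**
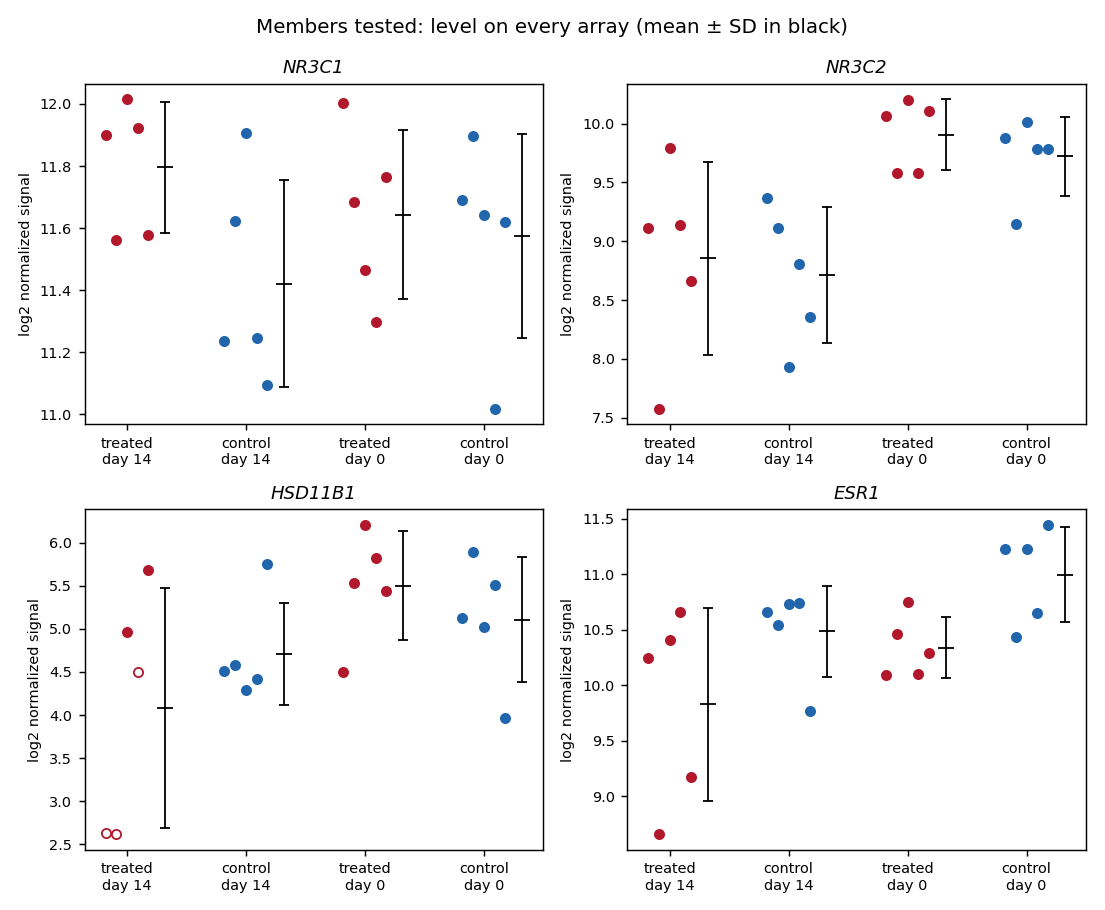
Level of the 4 tested genes on every array, in log2 normalized signal (vertical axis), by group (horizontal axis). Filled points are arrays on which the probe was well above background, open points those on which it was not, and black bars give the mean ± SD of 5 arrays; the NR3C2 day 14 means of 8.86 in treated and 8.71 in control muscle lie below the day 0 means of 9.91 in treated and 9.72 in control muscle.

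NR3C1 was a bright and steady transcript. In treated muscle at day 14 it read 11.90, 11.56, 12.02, 11.92 and 11.58 in DE27, DE29, DE30, DE31 and DE32, against 11.62, 11.90, 11.24, 11.09 and 11.24 in control muscle at day 14 in K3, K6, K8, K9 and K10. At day 0 it read 12.00, 11.68, 11.47, 11.30 and 11.76 in the treated animals in the same order, against 11.90, 11.64, 11.02, 11.62 and 11.69 in the control animals. The groups overlapped throughout, and the order of the group means (treated day 14, treated day 0, control day 0, control day 14) rested on steps smaller than the SD within a group, which was 0.21 to 0.33.

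No treatment difference of the receptor for the given glucocorticoid passed. The log2 difference was 0.37 ± 0.20 at day 14 (SE, n = 5 per group, limma adjusted p = 0.555) and 0.07 ± 0.19 at day 0 (adjusted p = 0.895). With storage it was 0.15 ± 0.18 in treated muscle (adjusted p = 0.558) and -0.15 ± 0.21 in control muscle (adjusted p = 0.593). Over all animals the 95% interval of the storage difference ran between -0.29 and 0.29, and 4 of 10 animals were higher at day 14.

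NR3C2 fell with storage. In treated muscle at day 14 the bright probe read 9.11, 7.58, 9.79, 9.14 and 8.66 in DE27, DE29, DE30, DE31 and DE32, against 10.07, 9.58, 10.20, 9.58 and 10.11 in the same animals at day 0. In control muscle at day 14 it read 9.12, 7.93, 8.80, 8.35 and 9.37 in K3, K6, K8, K9 and K10, against 9.15, 10.01, 9.78, 9.79 and 9.88 at day 0. Every animal was lower at day 14 than at day 0, with log2 differences of -0.03 in K3 and -2.08 in K6 as the extremes, although the ranges of the days overlapped in both treatments.

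The storage difference of NR3C2 was -1.05 ± 0.35 in treated muscle (limma adjusted p = 0.0430) and -1.01 ± 0.28 in control muscle (adjusted p = 0.0154). Over all animals it was -1.03 ± 0.23, a 2.04-fold lower level (limma adjusted p = 0.000816, days not paired). Counted within animals, 10 of 10 were lower. A large part of the array differed between the days: 54.5% of all tested probes passed in all animals, 29.6% in treated and 39.1% in control muscle. Most slides held arrays of 1 day only, so in these shares storage cannot be told apart from differences between slides. Lower at day 14 were 23.3% of tested probes in all animals, 11.8% in treated and 17.4% in control muscle. Of the 4 tested steroid genes, NR3C2 and HSD11B1 passed in all animals, the second with a direction that depended on the background correction, and NR3C2 alone passed within each treatment. By p, over both directions, 3776 of the 15438 probes ranked at or before NR3C2 in all animals.

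The slides carried day and group unevenly, and only 1 slide held both days of control muscle and 1 both days of treated muscle. Within the first, NR3C2 differed by -0.92 with storage, from 2 arrays at day 14 against 1 of another animal at day 0. Within the second it differed by -1.45, from 1 array against 1, while within the scan days it differed by -0.77 to -1.65. With the slide as a fixed block, which leaves those slides to carry the comparison, NR3C2 did not pass (-0.94 in all animals, adjusted p = 0.108), and with the slide as a random block, added after the data had been seen, it did (-1.03, adjusted p = 0.000962). The call within treated muscle was lost on leaving out DE27, DE29, DE31 or DE32 (adjusted p 0.0668 to 0.152), and that within control muscle on leaving out K6, K8 or K9 (adjusted p 0.0533 to 0.0795).

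The other NR3C2 probe did not follow. Its processed signal, before scaling, was 6.23 to 30.1 in treated and 6.52 to 23.5 in control muscle at day 14, against 4.66 to 22.1 in treated and 3.91 to 9.27 in control muscle at day 0. In a fit without the filter on dim probes its scaled value was 1.70 ± 0.32 higher at day 14 in all animals (adjusted p = 0.000168). Those are values of a probe that was above background on 4 of 20 arrays and on 1 spot only of each, and the mean of both probes then gave 0.33 (adjusted p = 0.0623). The fall of NR3C2 thus rests on 1 probe, which the file names by a sequence tag and its description assigns to the gene.

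Treatment did not separate NR3C2. The difference was 0.14 ± 0.40 at day 14 (adjusted p = 0.922) and 0.18 ± 0.20 at day 0 (adjusted p = 0.701), and its 95% interval over both days was -0.35 to 0.67. The order of the group means was treated day 0, control day 0, treated day 14 and control day 14, where the steps between treatments were smaller than the SD within a group (0.30 to 0.82).

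HSD11B1 was near the detection limit after storage. In treated muscle at day 14 it read 2.64, 2.62, 4.96, 4.50 and 5.68 in DE27, DE29, DE30, DE31 and DE32, of which DE30 and DE32 alone were well above background, against 4.50, 5.53, 6.21, 5.82 and 5.43 at day 0. In control muscle at day 14 it read 4.58, 4.29, 4.42, 5.76 and 4.51 in K3, K6, K8, K9 and K10, against 5.89, 5.02, 5.51, 3.97 and 5.13 at day 0. The signal was above background on all 5 control arrays at day 14, though on both spots of 2 only, and on both spots of all 10 arrays at day 0. Treated muscle at day 14 thus held both the lowest levels and the widest spread (SD 1.39, against 0.60 to 0.72 in the other groups).

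The storage difference of HSD11B1 in all animals was -0.91 ± 0.38 (limma adjusted p = 0.0479, lower in 8 of 10 animals), and no fold is stated, since 3 of the 5 treated arrays at day 14 were not well above background. It was -1.42 ± 0.59 in treated muscle (adjusted p = 0.0890, and 0.0409 with the animal as a block) and -0.40 ± 0.37 in control muscle (adjusted p = 0.418). The 2 treatments' storage differences were not shown to differ (interaction -1.02 ± 0.74, adjusted p = 0.9989). No tested probe passed that interaction, 0%, while 534 of 15438 had an unadjusted p under 0.05.

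The call for HSD11B1 depended on the background correction and on single animals. With a normexp background correction the difference in all animals turned to 0.76 (adjusted p = 0.00687) and in treated muscle to 0.72 (adjusted p = 0.0330), higher at day 14. Leaving out 1 animal ended the call for 8 of 10 animals (K3, K6, K8, K10, DE27, DE29, DE30 and DE31), with adjusted p as high as 0.126 without DE29, and leaving out K9 gave a larger difference of -1.21 (adjusted p = 0.00956). Within the scan days the difference was -2.30, -0.31 and -0.32. No direction with storage is therefore given for HSD11B1.

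Between treatments, HSD11B1 had a difference of -0.63 ± 0.58 at day 14 (adjusted p = 0.729) and 0.39 ± 0.38 at day 0 (adjusted p = 0.663). HSD11B2, the enzyme that inactivates cortisol, was well above background on 19 of 20 arrays. It read 4.82, 5.93, 5.74, 5.61 and 5.97 in treated muscle at day 14, against 6.09, 5.08, 4.77, 4.29 and 5.31 at day 0, in DE27, DE29, DE30, DE31 and DE32. In control muscle it read 5.85, 6.47, 5.45, 5.67 and 4.80 at day 14, against 4.68, 4.92, 4.52, 4.35 and 4.80 at day 0. The storage difference of HSD11B2 was 0.75 ± 0.22 in all animals (limma adjusted p = 0.00760), 0.51 ± 0.33 in treated muscle (adjusted p = 0.269) and 0.995 ± 0.27 in control muscle (adjusted p = 0.0146).

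The call of HSD11B2 in all animals depended on the scaling and on the slide. Its median processed signal, before scaling, was 35.9 in treated and 36.1 in control muscle at day 14, against 47.6 in treated and 35.9 in control muscle at day 0. In all animals the difference did not pass with quantile normalization (0.41, adjusted p = 0.0934), in the authors' table (0.36, adjusted p = 0.171) or with slides fitted as a block (0.25, adjusted p = 0.685), and it passed in the other 14 of 17 alternatives, which were added after the data had been seen. In control muscle it passed in 8 of 12, and did not without K3 or K9 (adjusted p 0.0582 and 0.0737). In treated muscle it passed in 2 of 12, with normexp (1.202, adjusted p = 0.00147) and without DE27 (0.95, adjusted p = 0.0129). The treatment differences of HSD11B2 did not pass (adjusted p 0.467 to 0.978).

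ESR1 was the member whose treatment difference came nearest to the threshold. In treated muscle at day 14 it read 10.25, 8.66, 10.41, 10.66 and 9.17 in DE27, DE29, DE30, DE31 and DE32, against 10.54, 10.73, 10.74, 9.77 and 10.66 in control muscle in K3, K6, K8, K9 and K10. At day 0 it read 10.09, 10.46, 10.75, 10.10 and 10.29 in treated muscle, against 10.44, 11.23, 10.65, 11.44 and 11.23 in control muscle. Treated muscle had the lower mean at both days, and the groups overlapped at both, with DE29 and DE30 above K3 at day 0.

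The treatment difference of ESR1 was -0.66 ± 0.38 at day 14 (limma adjusted p = 0.583), -0.66 ± 0.22 at day 0 (unadjusted p = 0.0125, adjusted p = 0.151) and -0.66 ± 0.20 over both days (unadjusted p = 0.00699, adjusted p = 0.101). The last of these has a 95% interval of -1.10 to -0.22 and corresponds to a 1.58-fold lower level in treated muscle. None of the 4 tested genes passed a treatment comparison, against 0.0713% of all tested probes at day 14, 2.45% at day 0 and 3.37% over both days. At an unadjusted limma p under 0.05 it was ESR1 alone, at day 0 and over both days. Of all 15438 tested probes, 2668 had such a p at day 0 and 2937 over both days. By p, 1065 of 15438 probes ranked at or before ESR1 over both days. Within the 3 slides that held both groups at day 0, ESR1 differed by -0.37, -0.62 and -1.13, whereas at day 14 it differed by -1.28, 0.76 and -1.49 within slides. Each of these values rests on 1 or 2 arrays per group.

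With storage ESR1 changed by -0.51 ± 0.36 in treated and -0.51 ± 0.25 in control muscle, and in all animals by -0.51 ± 0.22 (limma adjusted p = 0.0612, lower in 6 of 10 animals). Without DE27 or without DE31 the last passed (adjusted p = 0.0459 and 0.0286). The 4 group means stood in the order control day 0 (10.996 ± 0.43), control day 14 (10.49 ± 0.41), treated day 0 (10.34 ± 0.28) and treated day 14 (9.83 ± 0.87, SD, n = 5 each), and the ranges of 1 SD around neighbouring means overlapped.

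**Figure D2:**
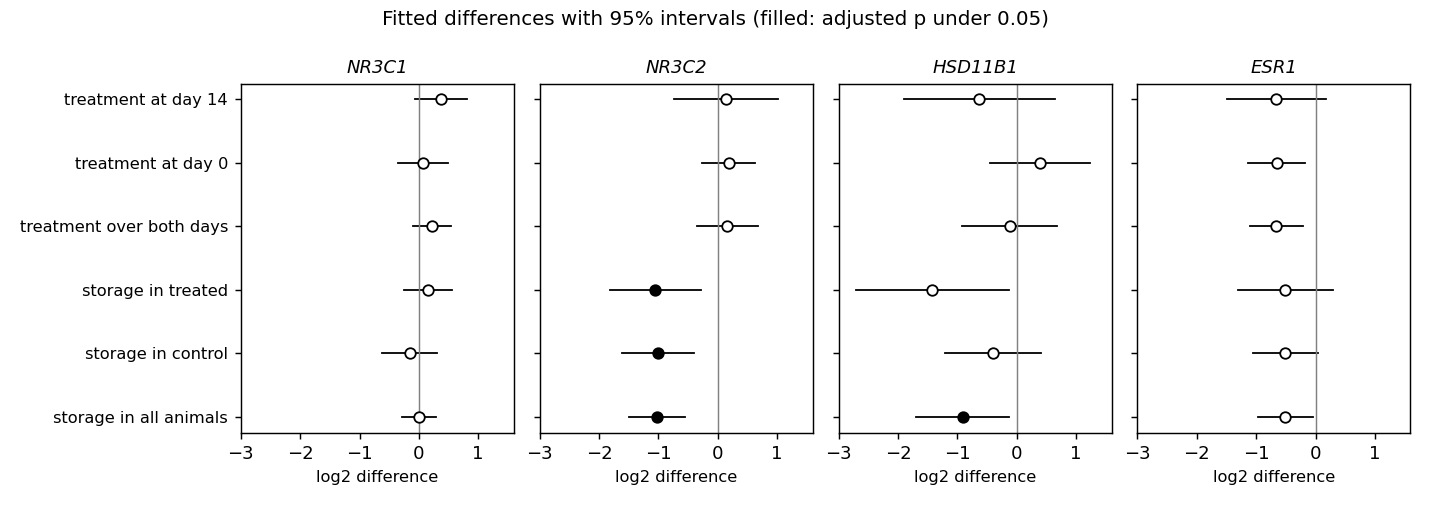
Fitted log2 differences of the 4 tested genes (horizontal axis; treated minus control, or day 14 minus day 0) with 95% intervals, 1 row for each comparison. Filled points passed at an adjusted p under 0.05: NR3C2 in the 3 storage comparisons and HSD11B1 in that over all animals; the ESR1 treatment intervals at day 0 and over both days lie below 0 without passing over all probes.

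The remaining receptors stayed at background. PGR had a processed signal of 5.39, 8.27, 7.04, 7.75 and 6.65 in treated muscle at day 14 in DE27, DE29, DE30, DE31 and DE32, against 4.53, 5.29, 4.31, 5.21 and 4.73 in control muscle at day 14. At day 0 it was 3.89 to 8.31 in treated and 4.36 to 10.53 in control muscle. It was marked well above background in treated animals DE31 and DE32 at day 14 and in control animal K6 at day 0, on 1 spot each time.

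ESR2 was not well above background on any of the 20 arrays, with a processed signal of 2.73 to 5.02 in treated muscle and 3.22 to 4.69 in control muscle at day 14, against 3.34 to 10.3 in treated and 2.91 to 4.40 in control muscle at day 0. No fold is stated for either receptor. In a fit without the filter on dim probes, the scaled values of ESR2 (limma adjusted p = 0.000544) and PGR (adjusted p = 0.000918) passed as higher at day 14 in all animals. The median processed signal of ESR2 was 4.57 in treated and 3.57 in control muscle at day 14, against 3.84 in treated and 4.18 in control muscle at day 0. That of PGR was 7.04 in treated and 4.73 in control muscle at day 14, against 4.64 in treated and 5.95 in control muscle at day 0. The 75th percentile that scales both was lower at day 14, and its part in these differences was not tested. No treatment difference of either passed in that fit (adjusted p 0.564 to 0.894).

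**Figure D3:**
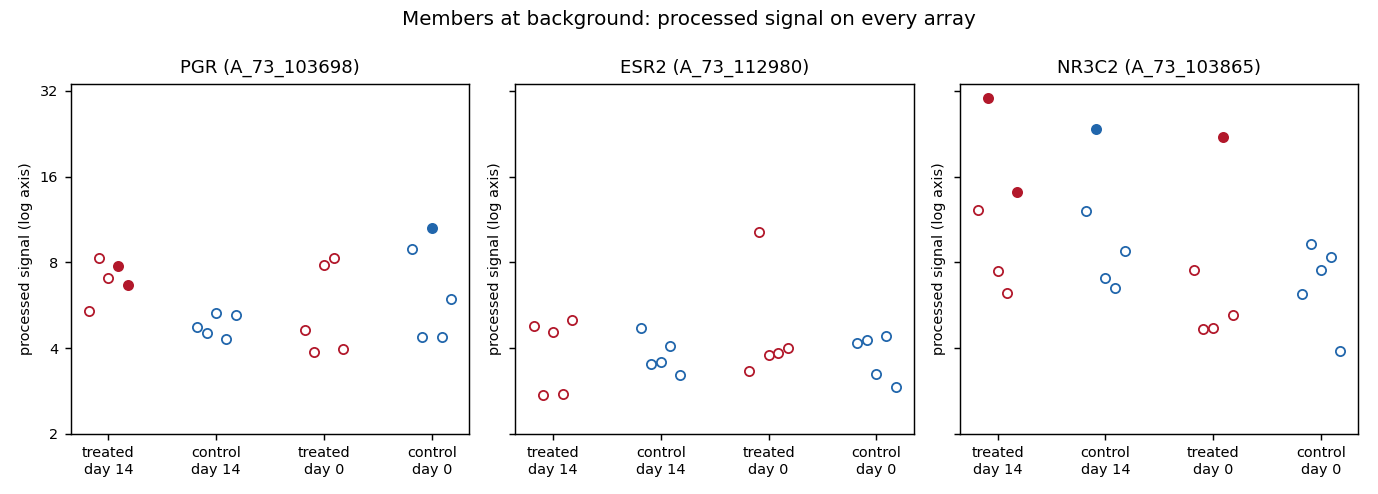
Processed signal, before scaling, of the 3 probes at background (vertical log axis) on every array, by group (horizontal axis). Filled points mark arrays where the probe was well above background: 3 for PGR, 0 for ESR2 and 4 for the NR3C2 probe A_73_103865.

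The changes of the tested genes were also compared in pairs. An exact sign-flip test, two-sided, over the 10 animals compared the within-animal change of each pair of tested genes, and an exact permutation test compared their treatment differences, 12 tests in all, chosen after the data had been seen. The storage change of NR3C1 lay above that of NR3C2 by 1.03 on the log2 scale, and above it in 9 of 10 animals (exact sign-flip p = 0.00586, adjusted p = 0.0476). NR3C2 stands here for its bright probe alone. These tests had no term for the slide, although most slides held arrays of 1 day only. NR3C1 against HSD11B1 gave 0.91 (exact p = 0.0762, adjusted p = 0.152) and against ESR1 0.51 (exact p = 0.0469, adjusted p = 0.113). For treatment over both days, ESR1 and NR3C2 differed by 0.82, with NR3C2 at 0.16 and ESR1 at -0.66 (exact permutation p = 0.00794, the smallest that 5 against 5 animals can give, adjusted p = 0.0476). The other 8 tests had adjusted p of 0.0762 to 0.889.

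**Figure D4:**
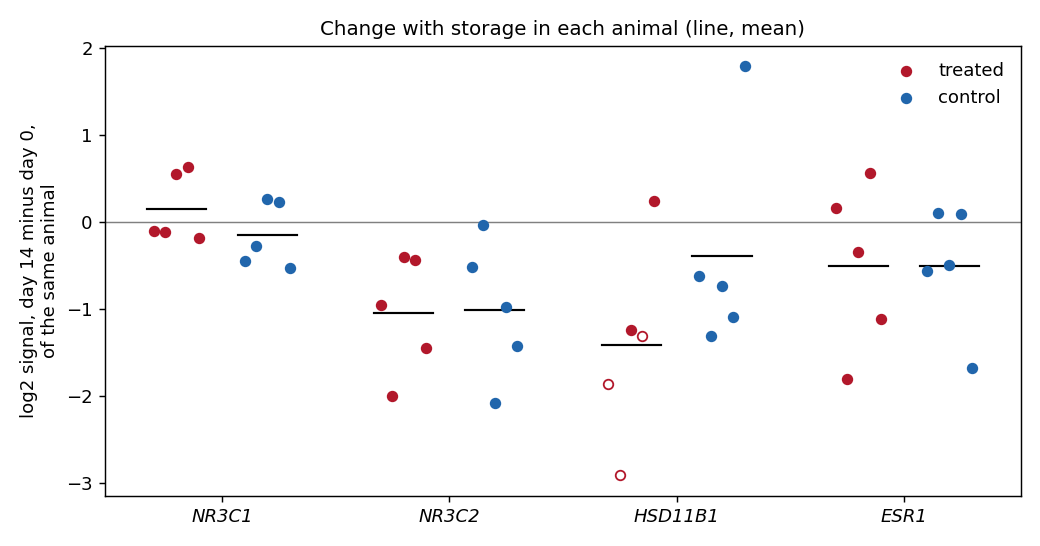
Change of the 4 tested genes in each animal, log2 signal at day 14 minus day 0 (vertical axis), treated animals in red and control animals in blue. Open points are animals whose HSD11B1 signal was well above background at day 0 but not at day 14. Lines give the mean of 5 animals, and all 10 NR3C2 points lie below 0.

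Across the 20 arrays NR3C2 and ESR1 correlated with each other (Pearson r = 0.58, and 0.68 after the group means were subtracted), the highest of the 6 pairs, while NR3C1 and NR3C2 had r = 0.10. These are descriptions over arrays that share 10 animals and a common scaling. Of 11458 other genes, the most like NR3C1 were DHRS7C (r = 0.84), CIDEB (r = 0.78) and GPRC5C (r = 0.76). NR3C2 was most like FANCM (r = 0.93), FGF1 (r = 0.92), a fibroblast growth factor, and BRCC3 (r = 0.91). ESR1 was most like MVD (r = 0.87), an enzyme of cholesterol synthesis, with SEL1L3 (r = 0.87) and LNPK (r = 0.87). Among the genes most like HSD11B1 were PCSK6 (r = 0.80) and C7 (r = 0.80), which encodes a complement protein.

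Neck muscle holds several cell types, and in bulk RNA fewer cells of a type and less RNA per cell cannot be told apart. All 9 endothelial markers were above background on all 20 arrays, and 8 of 9 rose with storage in all animals, where 27.4% of all tested genes did. Their summed signal was 29200 to 63298 in treated and 22855 to 65811 in control muscle at day 14, against 17872 to 26083 in treated and 14223 to 19420 in control muscle at day 0. Their level correlated across arrays with NR3C2 (r = -0.77) and ESR1 (r = -0.71). After the group means were subtracted these were -0.58 and -0.68. NR3C2 also correlated with the smooth muscle and pericyte markers (r = -0.59) and the lymphocyte markers (r = -0.58). After the group means were subtracted those 2 lists stood at -0.33 and -0.15. None of the 9 endothelial and none of the 8 muscle fibre markers passed between treatments over both days, and ESR1 correlated with the muscle fibre level at r = 0.01, and at 0.70 after the group means were subtracted. The median level of the muscle fibre markers was 16.80 in treated and 16.35 in control muscle at day 14, against 15.90 in treated and 16.21 in control muscle at day 0, so that it was higher in treated muscle at day 14 and lower at day 0.

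The list for satellite cells, the stem cells of muscle, had 3 tested genes of 4 listed, MYF5, CDH15 and CHRNG, while PAX7 had no named probe. CHRNG is not specific to satellite cells, so the level of the list cannot be read as one of these cells alone. The level of the 3 genes correlated with ESR1 at r = 0.54 (Spearman 0.73) across arrays, and at 0.24 after the group means were subtracted. Their median level was 7.06 in treated and 7.81 in control muscle at day 14, against 7.07 in treated and 8.20 in control muscle at day 0, and their summed signal was 1221 to 2699 in treated and 2098 to 2598 in control muscle at day 14, against 1431 to 2025 in treated and 2106 to 3408 in control muscle at day 0. At day 0, 2 of 3 were lower in treated muscle, where 1.08% of all tested genes fell, namely CHRNG (-2.03 ± 0.31, limma adjusted p = 0.0111), an acetylcholine receptor subunit, and CDH15 (-0.69 ± 0.16, adjusted p = 0.0460), a muscle cadherin. Over both days CHRNG alone passed (-2.01 ± 0.32, adjusted p = 0.00888), and at day 14 none did. MYF5, a myogenic transcription factor, differed by 0.56 ± 0.34 at day 14 and -0.06 ± 0.33 at day 0 without passing.

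All 9 fibroblast markers were above background on every array too, and 4 of 9 fell with storage in all animals (6 with normexp), where 25.3% of all tested genes did. Their summed signal was 10337 to 45298 in treated and 21708 to 102352 in control muscle at day 14, against 30908 to 77378 in treated and 35039 to 74325 in control muscle at day 0. Their level correlated with HSD11B1 (r = 0.62, Spearman 0.34, and 0.45 after the group means were subtracted). HSD11B1 correlated with other lists as well, among them the muscle fibre markers (r = -0.59) and the macrophage markers (r = 0.47). After the group means were subtracted these were -0.31 and 0.41. LEP of the adipocyte list and CD79B of the lymphocyte list were above background on no array. The part of these cell types in the differences of the receptors and HSD11B1 was not tested.

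Of the genes that work with these receptors, few differed with treatment. None of 28 tested coactivators and corepressors and none of 21 steroid-converting enzymes passed over both days, 1 of 16 receptor chaperones fell and 1 of 15 oestrogen-induced genes rose. Among other steroid-related receptors ESRRG rose. Over 11469 tested genes 1.36% rose and 1.84% fell in that comparison. At day 0 ESRRG alone of these lists passed, and at day 14 none did.

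ESRRG, named through its gene number, encodes an orphan receptor related to the oestrogen receptors that does not bind oestradiol and, in mice, favours oxidative metabolism in muscle. It read 9.95, 9.81, 10.21, 8.24 and 7.14 in treated muscle at day 14 in DE27, DE29, DE30, DE31 and DE32, against 5.24, 4.79, 6.56, 5.76 and 7.27 in control muscle in K3, K6, K8, K9 and K10. At day 0 it read 9.40, 9.58, 9.53, 10.54 and 8.72 in treated muscle, against 5.39, 6.64, 3.79, 6.54 and 6.16 in control muscle. The groups did not overlap at day 0 and overlapped at day 14 in DE32 and K10 only.

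The ESRRG difference was 3.85 ± 0.52 at day 0, 14.4-fold higher in treated muscle (limma adjusted p = 0.00782), and 3.50 ± 0.39 over both days (adjusted p = 0.00192). At day 14 it was 3.15 ± 0.64 without passing (adjusted p = 0.144). At day 0 and over both days ESRRG passed in all 15 alternatives tried for each, with differences of 2.34 to 4.09.

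FKBP5, a co-chaperone that glucocorticoids induce, read 7.84 to 8.99 in treated muscle at day 14, against 8.37 to 12.26 in control muscle, and 4.97 to 8.86 in treated muscle at day 0, against 8.66 to 12.76 in control muscle. It fell by 2.66 ± 0.52 over both days (limma adjusted p = 0.0222), and without K8, K9 or DE29 it had an adjusted p of 0.0517 to 0.0554.

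GREB1, which oestrogen induces in human breast cancer cells, averaged 4.98 ± 0.54 in treated and 3.92 ± 0.74 in control muscle at day 14, against 5.60 ± 0.77 in treated and 4.09 ± 0.50 in control muscle at day 0 (SD, n = 5 each). It rose by 1.29 ± 0.29 over both days (limma adjusted p = 0.0358). It held its call in 7 of 15 alternatives (adjusted p 0.00697 to 0.472). Over both days ESR1 itself and the other tested genes of the oestrogen-induced list did not pass.

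**Figure D5:**
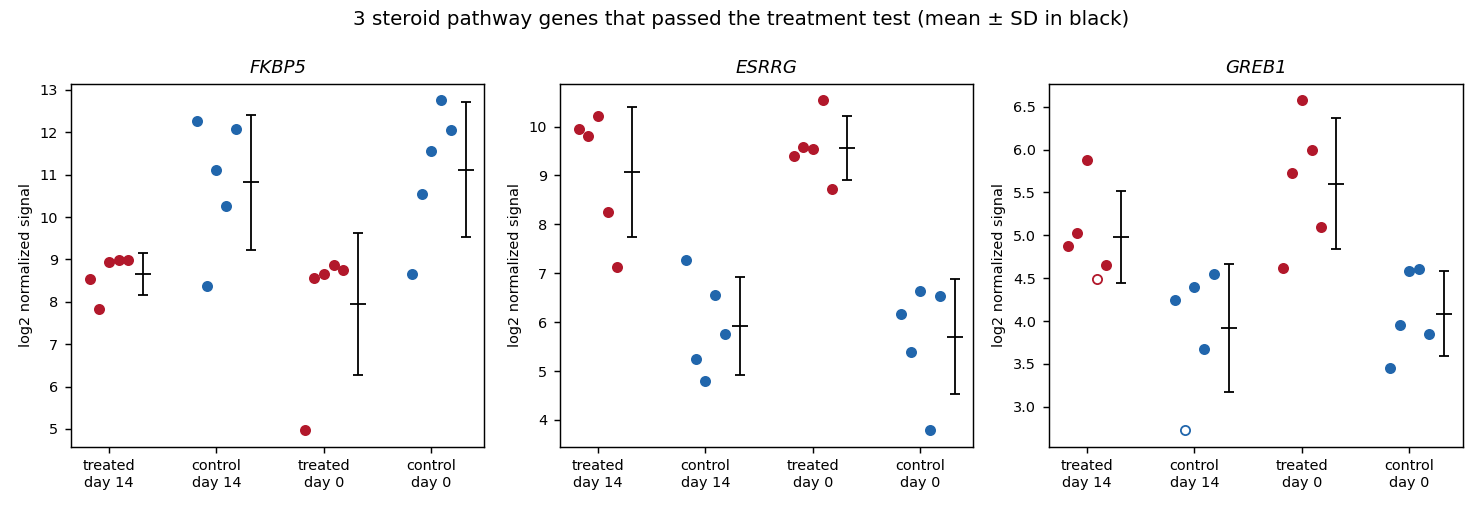
Level of 3 genes of the steroid lists that passed a treatment comparison, FKBP5, ESRRG and GREB1, in log2 normalized signal (vertical axis), by group (horizontal axis), with filled points well above background, open points not, and black bars for the mean ± SD of 5 arrays. ESRRG in treated muscle at day 0 (8.72 to 10.54) lies above control muscle at day 0 (3.79 to 6.64).

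Of the receptor chaperones, 9 of 16 fell with storage in all animals, 7 did not pass and 0 rose (median -0.38), where 25.3% of all tested genes fell and 27.4% rose (median 0.04). The cyclophilin PPID (-1.50 ± 0.21), the HSP90 gene HSP90AB1 (-1.01 ± 0.19) and the co-chaperone ST13 (-0.77 ± 0.14) had the smallest p (limma adjusted p 1.02e-05 to 0.000148). With a normexp background correction 7 fell and 2 rose (median -0.15), and with quantile normalization 7 fell and 0 rose. Within treated muscle 3 of 16 fell, where 13.1% of all tested genes did, and within control muscle 7 of 16, where 18.9% did, and 0 rose in either.

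The coregulators split with storage in all animals, with 7 of 28 higher and 4 lower at day 14. Over all tested genes 27.4% rose and 25.3% fell in that comparison, which are the shares to set beside each list here. The coactivator NCOA2 rose by 1.59 ± 0.17 and SMARCD1, a subunit of a chromatin remodelling complex, by 0.96 ± 0.13, while PHB2 fell by 0.70 ± 0.14. Of the 21 converting enzymes 8 rose, among them STARD3 (1.05 ± 0.17), and 5 fell, among them the steroid reductase SRD5A1 (-0.60 ± 0.14). That split depended on the scaling, with 2 higher and 4 lower under quantile normalization and 3 higher and 4 lower in the authors' table. Among the other receptors ESRRB, well above background on 11 of 20 arrays, rose by 1.17 ± 0.23. PGRMC2, a membrane progesterone receptor component, fell by 0.93 ± 0.18. Of the 9 tested genes of that list 3 rose and 2 fell, and 2 rose and 2 fell under quantile normalization and in the authors' table. Of 15 oestrogen-induced genes 7 rose, KRT19 by 1.096 ± 0.17, and 2 fell, XBP1 by 0.59 ± 0.12 (6 and 3 under quantile normalization).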

How the data were processed

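RNA from 20 neck muscle samples was labelled with cyanine 3 and hybridised to a bovine Agilent array, 1 array per sample, per the labels. The processed signal, an intensity, was deposited by the authors after background subtraction and detrending with Feature Extraction 9.5.1.1, per the file headers. The submitters' processing notes name R 2.11.1. Intensity values in a further file for the whole series, which the authors normalized by a method not given in the sources used here, served as an alternative. Outlier marks and background marks per spot, other codes deposited by the authors, were used to filter.

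Here the processed signal was taken to log2, centred on each array's 75th percentile, and averaged over a probe's spots without 935 outlier spots. Probes well above background on at least 5 arrays were tested, 15438 of 21475. Groups were compared with limma 3.58.1 (statmod 1.5.0; package data.table, version 1.17.8) in R 4.3.3, adjusted over all tested probes, at 0.05. The fit of treatment at day 0 was tested on simulated data with independent noise, and the other fits were not. Figures were drawn with matplotlib 3.10.9 from tables made with pandas 2.3.3, numpy 2.4.6 and Python 3.11.15. Genes were named through a RefSeq table (assembly ARS-UCD2.0) by symbol, gene number or accession, and 16681 of the 21475 probes got a name. No coordinates or sequences are given, since the array's genome build is not given in the sources used here.

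All 6 genes are reported with every probe. Of each gene list, the 3 genes of smallest p that passed were eligible to be named per direction and comparison, and for each tested gene the 3 genes of highest correlation. One gene of the list of other receptors and one of the genes most like HSD11B1 are not reported here. The genes, lists and tests were chosen with earlier results of these data known. The animal number pairs the day 14 and day 0 samples, since they come from the same animal. The main fits between days did not use that pairing. Their deviations from group means correlated with r of -0.15 to 0.28 (median 0.05). Group and day were read from sample titles. A free-text description field that contradicts the titles on the day was not used, and 1 shortened title was read as DE31 by its number. Alternatives covered normalization, background correction, filters, slides, scan days, spots, animals and the pairing. Levels of different probes are not compared with each other. Arrays give no counts.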

Additional observations from a re-analysis of the deposited data

Results flagged for a closer look

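Among 28 sets of 5 values (7 probes in 4 groups), 4 held a sample far from the others by Dixon's ratio. That ratio is the distance from the nearest neighbour divided by the range of the 5 values, with a limit of 0.71. Chance gives about 1 such set in 20. The lowest ESR1 value of control muscle at day 14 was 9.77 in K9, where the next was 10.54, and K9 also held the highest HSD11B1 value of that group, 5.76, where the next was 4.58. The lowest NR3C2 value of control muscle at day 0 was 9.15 in K3, where the next was 9.78. ESR2 in treated muscle at day 0 reached 2.86 in DE29, where the next was 1.61, without being above background.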

How the results depend on the processing

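The alternatives were run for the 4 tested genes in 7 comparisons, except that HSD11B1, where every array compared must be above background, could be tested only for treatment at day 0 and storage in control muscle. The animal as a replicate block (paired) ended no call and gave HSD11B1 with storage in treated muscle -1.42 (adjusted p = 0.0409). The fall of NR3C2 in treated muscle did not pass with quantile normalization (-1.04), the authors' table (-1.05), the scan day as a block (-0.91), the second spot only (-1.02) or the slide as a block (-1.45), and with the slide also not in control muscle (-0.92) or all animals (-0.94). The mean of both NR3C2 probes gave 0.27 in control and 0.40 in treated muscle, 0.33 in all animals and an interaction of 0.14, because the dim probe's scaled value rose.

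HSD11B1 with storage in all animals did not pass with the first spot (-0.83), the second spot (-0.99), the slide as a block (-0.35) or as a random block (-0.89). In treated muscle it passed with quantile normalization (-1.93) and the scan day (-1.43), and turned to 0.24 with the slide. With normexp it gave 0.79 with storage in control, 0.72 in treated and 0.76 in all animals, and for treatment 0.15 at day 14 and 0.18 over both days (0.10 with the first spot). The cause was not tested.

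ESR1 passed with storage in all animals under normexp (-0.57), and its interaction turned to 0.00974 (normexp), 0.0123 (first spot), 0.0821 (scan day) and 0.00333 (median centring). NR3C1 with storage turned to 0.0976 (quantile), 0.0892 (authors' table) and 0.0318 (second spot) in all animals, and to -0.0392 (normexp) and -0.19 (slide) in treated muscle. NR3C2 with treatment at day 14 turned to -0.0385 (normexp) and -0.00879 (first spot), and its interaction to 0.23 (slide) and 0.22 (scan day).

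Leaving out 1 animal gave, with storage, NR3C2 -1.25 to -0.74 in control and -1.21 to -0.81 in treated muscle, HSD11B1 -0.94 to -0.17 in control muscle (it passed without K9) and -1.21 to -0.68 in all, ESR1 -0.63 to -0.37 in all and NR3C1 -0.0697 to 0.0582 in all. With treatment it gave HSD11B1 -0.32 to 0.18 over both days, NR3C1 -0.0700 to 0.16 at day 0 and NR3C2 -0.0922 to 0.46 at day 14. Interactions ran between -0.29 and 0.32 for ESR1 and -0.31 and 0.20 for NR3C2.

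Probes called for treatment were 378 at day 0 (230 without a filter, 201 with 1 fit of all arrays that takes the animal as random replicate block, 680 with the slide as a random block, 135 to 311 without 1 animal). At day 14 they were 11 (1 normexp, 7 above background on all arrays, 0 slide, 3 scan day or slide as a random block, 107 all arrays, 0 to 12 without 1 animal) and over both days 520 (136 normexp, 346 no filter, 982 scan day, 220 to 529 without 1 animal). With storage they were 6043 in control (197 slide, 3240 to 6663 without 1 animal), 4565 in treated (8834 normexp, 8733 no filter, 0 slide, 2432 to 5702 without 1 animal) and 8421 in all animals (13298 no filter, 2272 slide). Signal over background limits HSD11B1, PGR, ESR2 and 1 NR3C2 probe.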
